A study of Mus musculus with 67 samples.

Results

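Among 67 single cells from cultures of mouse aortic smooth muscle, 7 held several marker genes of the endothelium, the cell layer that lines vessels. These endothelial marker cells were chosen by the measured values themselves, as those in which at least 3 of 10 endothelial genes (Pecam1, Cdh5, Kdr, Tek, Vwf, Emcn, Egfl7, Cldn5, Tie1 and Esam) reached a deposited value of 10, where a value is the read count of a gene divided by the size factor of its cell. The rule picked 5 of 22 cells at passage 1 (22.7%, exact Clopper-Pearson 95% interval 7.82 to 45.4%) and 2 of 45 at passage 2 (4.44%, 0.543 to 15.1%), intervals that cover counting error only. They were set beside the other 17 and 43 cells of the same passage. Cells are named by passage and number, so the endothelial marker cells were cells 11, 12, 13, 14 and 16 at passage 1 and cells 8 and 11 at passage 2.

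The cultures came from descending aorta of male C57Bl6 mice, adults between 3 and 4 months old, and no group carried an allele or an agent beyond the culture itself. Cells grew in DMEM with 10% fetal bovine serum, penicillin and streptomycin, stood for 5 days, after which trypsin was used to lift them for subculture as passage 2. Each cell, captured on a Fluidigm C1 system, became 1 library of total RNA. The labels name every cell a vascular smooth muscle cell and name no animal, culture or pool for any of them. The cells of a passage therefore counted as 1 sample, no p-value or standard error was computed, and an SD gives the spread between cells. Library names of the passages carry different prefixes, so passage and library set cannot be told apart.

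The 5 endothelial marker cells of passage 1 had 1141628 to 1561129 reads and 7544 to 10396 genes with a read, against 817021 to 1457821 reads and 4017 to 10733 genes in the other 17. Those of passage 2 had 687454 and 842425 reads and 7382 and 7779 genes, inside the range of the other 43 (548419 to 1509589 reads, 4163 to 8731 genes). Mitochondrially encoded genes took 12.1% of the reads of passage 2 cell 11, above the 9.04% of the highest other cell, and 4.32% in cell 8. The cycle genes Mki67 or Top2a reached 10 in 3 of 5 endothelial marker cells and 13 of 17 others at passage 1, and in 1 of 2 (cell 8) and 9 of 43 at passage 2.

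Endothelial cells of arteries and veins share junction proteins, VEGF and angiopoietin receptors and a set of ETS, GATA and SOX transcription factors. Arterial cells are known for VEGF and Notch signalling and for the gap junction proteins of Gja4 and Gja5, and venous cells for the nuclear receptor of Nr2f2 and the receptor of Ephb4. Inflammatory signals acting through NF-kB switch on the selectins, VCAM-1 and ICAM-1, by which leukocytes attach. Endothelial cells can also take up mesenchymal genes, such as those of actin filaments and fibrillar collagen, a process studied in culture and in disease.

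The values that chose the cells are given as a description. Emcn, which encodes the sialomucin endomucin, stood at 1256, 4269, 2050, 2262 and 0 in passage 1 cells 11, 12, 13, 14 and 16 and at 4738 and 3605 in passage 2 cells 8 and 11, with at most 2.89 and 8.48 in any other cell. Cdh5, the junction protein VE-cadherin, was at 115, 194, 868, 354 and 121 and at 766 and 784. Cdh5 was the marker gene that reached 10 in all 7 cells together with Pecam1, whose lowest value was 12 in passage 1 cell 14. Cldn5, a tight junction gene, was at 0 in all 67 cells. The 5 cells of passage 1 had 5, 7, 9, 4 and 5 markers at 10 and the cells of passage 2 had 8 and 7. No other cell had more than 1, a count reached by 2 of 17 and 3 of 43 cells, so the cells just inside and just outside the rule were 3 markers apart. With 3 markers needed, the same 7 cells were picked at a value of 5, 10 or 20.

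The label was also read against 35 further pan-endothelial genes that the rule did not name. Of these, 16 to 29 reached 10 in each endothelial marker cell of passage 1 and 1 to 7 in each other cell. At passage 2 the counts were 26 and 19 against 0 to 6. The summed value of the 35 genes was 2389, 11093, 15351, 5001 and 4020 in cells 11, 12, 13, 14 and 16, and at most 2231 in another passage 1 cell. It was 3197 and 7475 at passage 2, where the highest other cell had 766. These genes come from the cells the rule sorted, so they describe the cells and do not test the rule.

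The log2 ratio used from here on is log2 of the mean over endothelial marker cells plus 1, divided by the mean over the other cells of the passage plus 1. It was taken for genes with a mean of at least 10 on either side, 8923 at passage 1 and 8690 at passage 2. At passage 1, 1933 of them (21.7%) were at least 2-fold higher and 2165 (24.3%) at least 2-fold lower, with a median over all genes of -0.02. At passage 2, 2137 (24.6%) were higher and 3784 (43.5%) lower, with a median of -0.52, and that median was -1.71 for cell 11 alone and -1.37 for cell 8 alone. The balance at passage 2 turned round with another summary over cells: medians gave 4526 higher and 1105 lower genes (all-gene median 1.13), and means of log2 values gave 3314 and 2275 (0.35). The median of 2 endothelial marker cells is their mean, so the medians changed only the summary of the other cells. Because ratios at passage 2 moved with the cell taken, its account is given by the values of single cells. A gene with a mean under 10 on 1 side was kept only through the other side, so the direction of its ratio was fixed by the filter. A stricter count took genes in which every endothelial marker cell was above every other cell of its passage: 24 genes at passage 1 (0.269%) and 93 at passage 2 (1.07%). The reverse held for 3 (0.0336%) and 19 (0.219%). Leaving out 1 endothelial marker cell gave 27 to 42 genes above at passage 1, all 24 among them, with 42 without cell 11, 39 without cell 14 and 38 without cell 16. At passage 2, cell 8 alone was above every other cell in 528 genes and cell 11 alone in 520.

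In all, 10 genes met the stricter count in both passages, of 7536 kept in both: Car8, Cd93, Ctla2a, Ctla2b, Ecscr, Gata2, Icam2, Myct1, Sele and Srgn. They made up 41.7% of the 24 genes of passage 1 and 10.8% of the 93 of passage 2. Several are textbook endothelial genes. Cd93 encodes a lectin-like receptor of the endothelial surface, Icam2 a constitutive ligand of leukocyte integrins, Ecscr a regulator of endothelial chemotaxis, Gata2 a transcription factor of endothelial and blood cells, Sele the inducible adhesion molecule E-selectin and Srgn the granule proteoglycan serglycin. Car8 encodes a carbonic anhydrase-related protein without enzyme activity.

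Cd93 was at 1739, 844, 2946, 523 and 1179 in passage 1 cells 11, 12, 13, 14 and 16 and at 4298 and 2932 in passage 2 cells 8 and 11. Among the other cells its medians were 0.586 and 0.944 and its highest values 90.7 and 175, so a gap separated the groups in both passages. Car8 was at 232, 1733, 1925, 910 and 392 and at 159 and 1944, with at most 7.28 and 3.20 in another cell. Icam2 was at 122, 179, 956, 65.7 and 164 and at 128 and 26.1, against at most 5.08 and 4.76. Passage 1 cell 13 held the highest values of Cd93, Car8, Icam2 and Ecscr among the cells of that passage. Ecscr was at 56.8, 559, 924, 195 and 306 and at 549 and 130, and the highest other value at passage 2, 126, lay just under the lower of the pair.

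Srgn was at 266, 110, 648, 133 and 108 and at 286 and 689, with at most 0.722 and 12.9 elsewhere. Gata2 stood at 39.3, 122, 239, 152 and 51.2 and at 51 and 332, against at most 21.6 and 38.7. Myct1, a direct target of ETS factors in endothelium, was at 18.9, 140, 184, 188 and 136 and at 18 and 664, against at most 17.7 and 0.812. The margin between the groups was thus narrow for Myct1 at passage 1 and for Gata2 at both passages, and wide for Srgn. Gata2 and the pair of ETS factor genes Erg and Fli1 lay outside the rule for named genes and were chosen after their values were seen. Erg was at 7.02, 16.3, 40.8, 21.9 and 6.93 at passage 1, above every other cell (at most 1.55), and at 64.1 and 137 at passage 2, where the highest other cell had 93.6. Fli1 was at 180, 484, 363, 90.4 and 102, above every other cell of passage 1 (at most 72.7), and at 76.1 and 777 against at most 169.

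**Figure D1:**
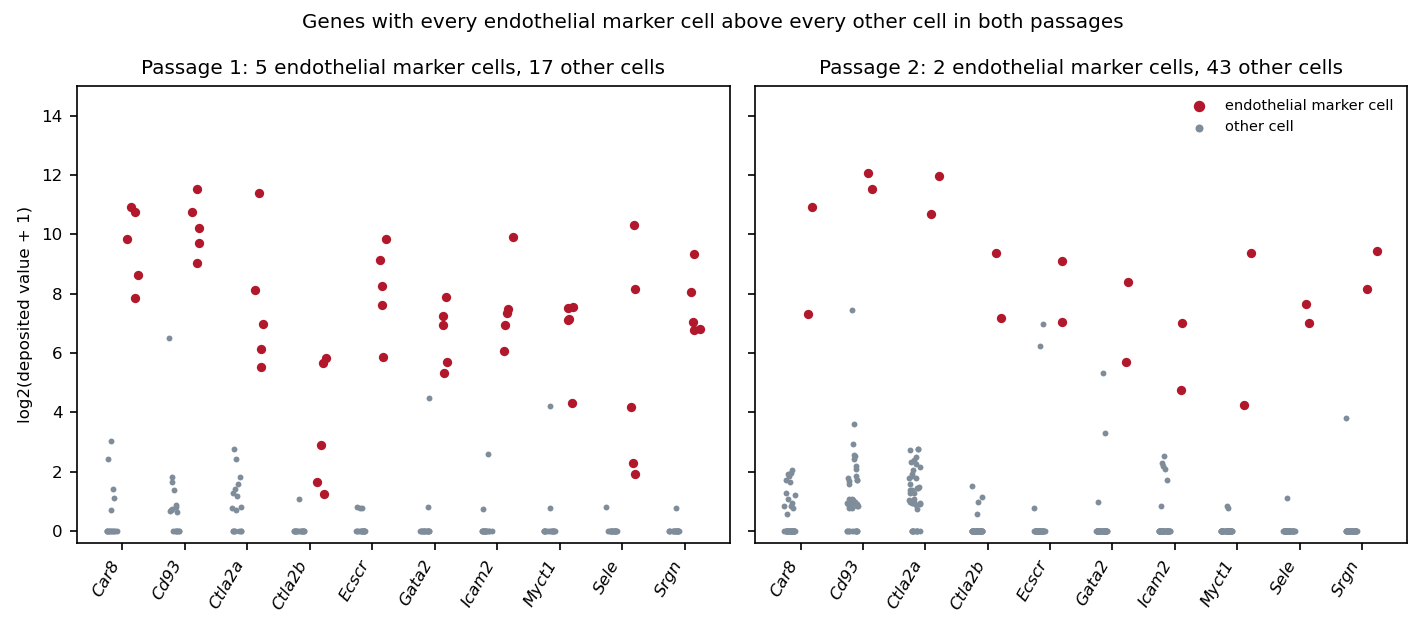
Values per cell of the 10 genes in which every endothelial marker cell was above every other cell in both passages, as log2(deposited value + 1) on the vertical axis, with 1 point per cell (red, endothelial marker cells; grey, other cells; points are spread sideways for legibility). The red points of Cd93 start at 523 at passage 1 and 2932 at passage 2, above the highest grey points at 90.7 and 175, while Ctla2b and Sele start at 1.40 and 2.81 at passage 1.

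Ctla2a and Ctla2b, which encode small cathepsin inhibitor-like proteins, are near copies on chromosome 13 (GRCm38, minus strand, 60934155 to 60936625 and 60895350 to 60897447). Ctla2a was at 68.8, 44.9, 2717, 124 and 275 and at 1643 and 3962, with at most 5.86 and 5.88 in another cell. Ctla2b was at 1.40, 55.8, 49.9, 2.12 and 6.40 and at 143 and 660, with at most 1.13 and 1.88. Both genes were higher in either cell of passage 2 than in cells 11, 12, 14 and 16 of passage 1. The counting of reads that match both genes is not given in the sources used here, so the split between them is uncertain. Sele (chromosome 1, plus strand, 164048234 to 164057677) is described with the activation genes.

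The sequences before these 3 genes are shown to set the near copies side by side, and for Sele because its value ranged from 2.81 to 1272 between cells. Each is the 250 bases before the start site in the RefSeq table of promoters (GRCm38.p6), 5′ to 3′ on the strand of the gene, and covers chr13:60936626-60936875 for Ctla2a, chr13:60897448-60897697 for Ctla2b and chr1:164047984-164048233 for Sele. Capitals mark matches to AGGAAG, a core that ETS factors bind, and to GATAAG, a core that GATA factors bind, on either strand (CTTCCT and CTTATC).
Ctla2a: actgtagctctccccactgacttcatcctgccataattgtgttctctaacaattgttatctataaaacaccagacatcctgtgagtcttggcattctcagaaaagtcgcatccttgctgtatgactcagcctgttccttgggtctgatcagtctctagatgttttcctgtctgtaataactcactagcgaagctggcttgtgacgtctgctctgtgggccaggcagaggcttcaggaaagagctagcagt
Ctla2b: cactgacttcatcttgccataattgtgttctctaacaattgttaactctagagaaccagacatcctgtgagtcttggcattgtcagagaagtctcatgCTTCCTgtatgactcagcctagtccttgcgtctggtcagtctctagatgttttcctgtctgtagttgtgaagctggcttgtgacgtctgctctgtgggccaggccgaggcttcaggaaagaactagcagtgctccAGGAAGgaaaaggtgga
Sele: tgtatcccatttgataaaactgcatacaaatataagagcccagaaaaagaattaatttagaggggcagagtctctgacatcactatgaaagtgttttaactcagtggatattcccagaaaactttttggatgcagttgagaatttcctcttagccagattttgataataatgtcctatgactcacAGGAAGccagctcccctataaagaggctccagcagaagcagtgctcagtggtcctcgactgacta
The Ctla2 windows were identical at 208 of 228 aligned bases (91.2%). Of the 10 genes, 6 were in the table, and AGGAAG was found before 2 of them (Ctla2b and Sele) and GATAAG before 1 (Myct1). Among all 32851 windows of that length in the table, 29.5% held AGGAAG and 6.55% GATAAG. A match describes the letters of the window and no site of binding.

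Of the 35 pan-endothelial genes outside the rule, nearly all those with a mean of at least 10 on either side were higher. At passage 1, 29 were kept and 28 were at least 2-fold higher, none lower, with a median log2 ratio of 4.67 (5.55 with genes at 0 in all other cells set at their lower bound), and 6 had every endothelial marker cell above every other cell. At passage 2, 25 were kept, 24 were higher and none lower, the median was 4.48, and 11 were above every other cell. Over all genes, 21.7% and 24.6% were higher and 0.269% and 1.07% were above every other cell. Pan-endothelial genes with a mean under 10 in the other cells were kept only through the endothelial marker cells and could only come out higher. Among them were 3 genes at each passage that were at 0 in all other cells. The counts therefore describe the list and do not test it. Ptprb, the phosphatase VE-PTP that acts on VE-cadherin and Tie receptors, was at 172, 473, 989, 21.2 and 163 and at 16 and 1699, against medians of 0 and highest values of 87.6 and 242. Calcrl, the adrenomedullin receptor, was at 638, 2081, 1281, 1309 and 634 at passage 1, where other cells had a median of 167 but reached 1910.

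Cd34, a sialomucin of endothelial and progenitor cells, differed between the passages in how many of these cells held it. It was at 66.7, 5887, 2511, 679 and 920 at passage 1, where the other cells had a median of 0.715 and a highest value of 114. Its passage 2 values were 232 in cell 8 and 0 in cell 11, inside the range of the other cells (0 to 363). Sox7, a transcription factor of endothelial development, was at 31.6, 3.87, 44.6, 314 and 142 at passage 1 and at 238 and 1094 at passage 2, where no other cell had more than 1.96. Sox18, its relative, was chosen after its values were seen and reached 734 and 69.9 in passage 1 cells 13 and 14 and 0 in the other three.

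Several further genes among the highest ratios were nearly absent from the other cells. At passage 1, Enpp6, a choline phosphodiesterase, was at 447, 873, 820, 0 and 82.7 against at most 2.90, and at 1.00 and 0 at passage 2. 2610008E11Rik was at 21.8, 30.2, 0, 663 and 114 against at most 4.33 at passage 1. Procr, the endothelial protein C receptor, was at 28.1, 3.10, 838, 409 and 280 against at most 15.8, and at 1178 and 1527 against at most 63.9 at passage 2. At passage 2 the highest ratios after Ctla2a, Car8, Cd93 and Sox7 included Depp1, a FOXO target, at 519 and 697 (at most 3.92 elsewhere). Abcg1, a sterol exporter, was at 453 and 263 (at most 0.812), and Bcl6b, a transcriptional repressor, at 184 and 574 (at most 1.32). Ppp1r16b, the endothelial phosphatase regulator TIMAP, was at 918 and 172 (at most 9.43). Depp1 and Abcg1 were held by a single endothelial marker cell of passage 1, cell 13, at 445 and 159.

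Arterial genes with a mean of at least 10 on either side were mostly higher in the endothelial marker cells at passage 1 and mixed at passage 2. Of 19 arterial genes, 12 were kept at passage 1, and 10 were at least 2-fold higher (against 21.7% of all genes) and none lower, with a median log2 ratio of 1.92. That median was 1.36 without cell 12 and 2.88 without cell 18, another cell of passage 1. At passage 2, 13 were kept, 6 higher and 3 lower (24.6% and 43.5% of all genes), with a median of 0.81 that was 0.24 for cell 11 alone and -1.54 for cell 8 alone. Gja5, Sema3g and Notch1 at passage 1 and Gja4, Sox17 and Notch4 at passage 2 were kept only through the endothelial marker cells. These genes could only come out higher, so the counts describe the list and do not test it. The number of arterial genes at 10 was 12, 10, 13, 6 and 10 in the cells of passage 1 against 0 to 7 in the others, and 7 and 11 at passage 2 against 1 to 9.

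The gap junction genes were at 0 in at least 1 endothelial marker cell of each passage. Gja4, which encodes connexin 37, was at 698, 0, 1539, 186 and 179 in passage 1 cells 11, 12, 13, 14 and 16, and 4 of the 5 were above every other cell (at most 149). At passage 2 it was at 0 and 59, inside the range of the other cells (0 to 144). Gja5, which encodes connexin 40 and marks arterial endothelium, was at 10.5, 34.1, 312, 0 and 28.8 against at most 1.45 at passage 1, and at 0 in both cells of passage 2.

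Edn1, which encodes the vasoconstrictor peptide endothelin 1, was at 848, 388, 0, 114 and 631 at passage 1 and at 1325 and 733 at passage 2. Its medians in the other cells were 0 and 1.07 and its highest values 151 and 546, so both cells of passage 2 and 3 of 5 of passage 1 stood above all others. The receptor and ligand genes were more evenly spread. Efnb2, the arterial ephrin ligand, was at 667, 827, 310, 641 and 488 at passage 1, where the other cells had a median of 172 and a highest value of 489, and at 509 and 53.5 at passage 2 (others 0 to 1642). Nrp1, a VEGF and semaphorin co-receptor, was at 332, 842, 1529, 696 and 557 against a median of 292, and at 46.0 and 390 against a median of 183, so the values overlapped with those of other cells.

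Notch pathway members differed among themselves. Notch4, the Notch receptor most restricted to endothelium, was at 0, 0, 5.29, 0 and 2.13 at passage 1 and at 2.00 and 76.8 at passage 2, and it was at 0 in all other cells. Its mean at passage 2 was at least 564-fold higher, taking 3 reads over the group of other cells as the floor, and rested on cell 11. Notch1 was at 0, 24.8, 33.3, 0 and 16 and at 4.00 and 60.4, with other cells up to 59.6 and 89.5. Hey2, a Notch target that favours arterial fate, was at 221, 536, 3.78, 0 and 0.533 at passage 1 and at 0 in both cells of passage 2, where other cells had a median of 18.8 and reached 888. Jag1, a Notch ligand, was at 556, 772, 1018, 890 and 172 at passage 1, above the other cells' highest value of 540 in 4 of 5. At passage 2 it was at 208 and 211 while the other cells had a median of 1596, against 70.4 at passage 1. The log2 ratio of Jag1 was therefore 2.15 at passage 1 and -3.22 at passage 2, a difference between passages that was not tested.

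The other arterial genes at 10 in an endothelial marker cell differed in how many cells held them. Hey1 (11.3) and Cxcr4 (15.9) reached 10 in passage 1 cell 13 and in no other endothelial marker cell, and 1 other cell of passage 1 held Hey1 at 29.3. Dll4, the Notch ligand gene of the list, was at 2.11 in passage 1 cell 11 and at 0 in the other endothelial marker cells. Jag2 was at 0 in all 7. Sox17, a transcription factor upstream of arterial Notch signalling, was at 4.00 and 30.2 at passage 2 and at 0 in all other cells, a mean at least 244-fold higher, and at no more than 0.775 at passage 1. Sema3g was at 43.5 and 16.6 in passage 1 cells 11 and 13 and at 0 in the other three, in both cells of passage 2 and in all other cells. Bmx, an arterial tyrosine kinase gene, was at 17.5, 270, 20.4, 2.12 and 24.0 at passage 1 against a median of 0, though 1 other cell reached 135. Mecom, a transcription factor, reached 10 in all 7 cells, at 103, 110, 330, 36.7 and 18.7 and at 290 and 147, within the range of the other cells (up to 399 and 1506). Unc5b, a netrin receptor, was at 20.3, 246, 17.4, 7.77 and 15.5 and at 18 and 52.1, and other cells reached 190 and 456. Ltbp4 was at 69.1 and 305 at passage 2 against a median of 0 and a highest value of 180. Fbln5, an elastic fibre gene also made by smooth muscle, was at 636, 2256, 291, 2170 and 149 against a median of 434 at passage 1, and at 17 and 870 against a median of 3131 at passage 2.

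**Figure D2:**
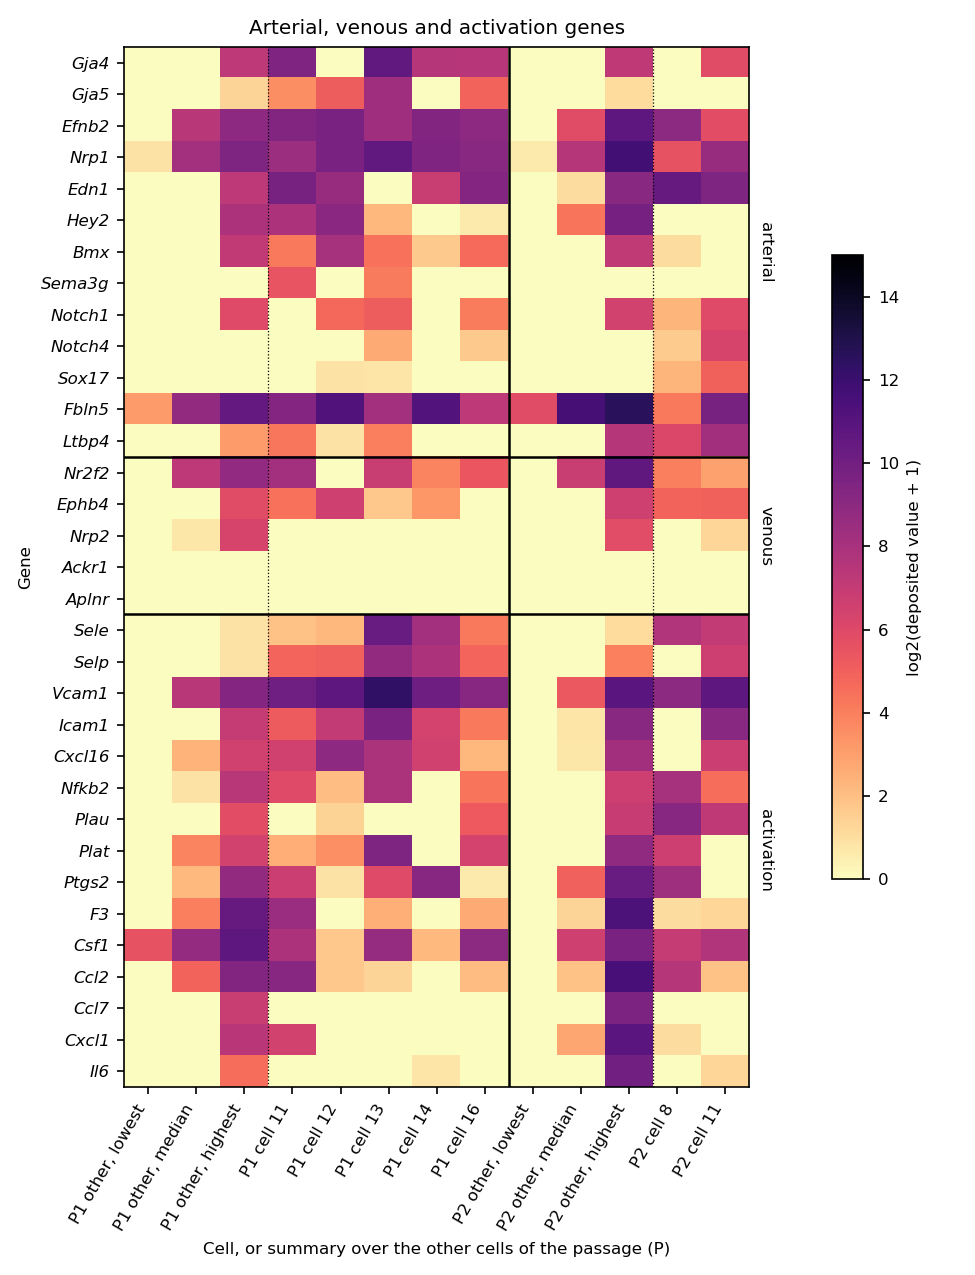
Heat map of arterial, venous and activation genes (rows; Selp, also a venous gene, is drawn with activation), as log2(deposited value + 1), in the 7 endothelial marker cells beside the lowest, median and highest value over the other cells of each passage (P). Gja5 is dark in passage 1 cell 13 (312) and at 0 in both passage 2 cells, Sele is at or near 0 in other cells, and Ccl7 is at 0 in all 7 endothelial marker cells.

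Venous genes gave no common pattern. Of 11 venous genes, 4 were kept at passage 1 and 3 at passage 2, with medians of 3.06 and 1.58, of which the second was -1.19 for cell 8 alone. The median at passage 1 was -0.15 with no filter on low values, and with 1 cell left out it ran from 2.44 to 4.27. Over cells without Mki67 or Top2a at 10, which left endothelial marker cells 11 and 14, it was -0.056. The higher members at passage 1 were Selp, Flt4 and Ephb4, 3 of the 4 kept, beside 21.7% of all genes. Each had a mean under 10 in the other cells and was kept only through the endothelial marker cells. These members could only come out higher, so the count and the median at passage 1 describe the list and do not test it. Nr2f2, the venous nuclear receptor COUP-TFII, was at 289, 0, 112, 13.4 and 41.1 at passage 1 and at 15 and 6.86 at passage 2, where the other cells had medians of 148 and 114. Ephb4, the receptor for the arterial ligand of Efnb2, was at 20.3, 94.5, 2.27, 8.48 and 0 and at 29 and 30.2, with medians of 0 elsewhere but single cells at 58.2 and 95.3. Its log2 ratio at passage 1, 2.15, was 0.58 without cell 12. Ackr1, a chemokine receptor of venules, and Aplnr were at 0 in all 7 cells. Nrp2 was at 0 in 6 of 7 and at 1.37 in passage 2 cell 11. Flt4, the VEGF-C receptor, reached 74.1 in passage 1 cell 13 and 2.67 in cell 16, and no other lymphatic gene of 7 reached 10 in any of the 7 cells.

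Of 14 capillary and tip cell genes, 6 were kept at passage 1, none higher and 3 lower (21.7% and 24.3% of all genes), with a median of -0.72 that was -1.71 without cell 12 and -0.094 without cell 11. At passage 2, 8 were kept, 4 higher and 2 lower (24.6% and 43.5% of all genes), with a median of 1.31 that was -1.05 for cell 11 alone. The 4 higher members at passage 2 were Apln, Esm1, Pgf and Trp53i11. Apln, the tip cell ligand apelin, was at 799 in cell 8, at 0 in cell 11 and at 0 in all 43 other cells. Pgf, placental growth factor, was at 1073 and 0 against at most 267. Angpt2, an antagonist of the Tie2 receptor, was at 748 and 42.5 against a median of 184, and its log2 ratio of 0.55 was short of 2-fold. At passage 1, Apln reached 36.4 in cell 12 and 4.80 in cell 16 and was at 0 elsewhere. Apln and Pgf therefore marked cell 8 and not cell 11 at passage 2.

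Of 30 activation genes, 21 were kept at passage 1, 13 at least 2-fold higher and 4 lower (21.7% and 24.3% of all genes), with a median log2 ratio of 1.16 that was 0.45 without cell 13. At passage 2, 24 were kept, 10 higher and 7 lower (24.6% and 43.5% of all genes), with a median of 0.62, which was 0.33 for cell 11 alone and -0.34 for cell 8 alone. The 4 highest ratios at passage 1 were those of the adhesion molecule genes Sele, Selp, Icam1 and Vcam1, and the other 9 higher genes were Cxcl16, Plat, Nfkb2, Irf1, Il1r1, Ptgs2, Plaur, Nfkbia and Tnfaip3. Among them, Sele, Selp and Icam1 had a mean under 10 in the other cells of passage 1. These were kept only through the endothelial marker cells and could only come out higher. Ccl7, absent from the endothelial marker cells, could only come out lower. The counts therefore describe the list and do not test it.

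Sele was at 2.81, 3.87, 1272, 287 and 17.1 in passage 1 cells 11, 12, 13, 14 and 16 and at 200 and 128 in passage 2 cells 8 and 11. A single other cell held any read of it in each passage, at 0.776 and 1.16. Cells 11 and 12 of passage 1 were thus above the other cells by only a few reads, and cell 13 was far above them. Selp, which encodes P-selectin, was at 28.1, 31.8, 432, 222 and 27.2 at passage 1 against at most 0.776, and at 0 and 100 at passage 2 against at most 14.5. Cells 13 and 14 held the most of both selectin genes at passage 1.

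Vcam1, the ligand of integrin alpha 4, was at 1062, 1738, 5095, 1118 and 578 at passage 1, where 4 of 5 cells stood above the highest other cell (635, median 169). Its passage 2 values, 503 and 1715, lay within the range of the other cells (0 to 1874, median 38.6). Icam1, a ligand of leukocyte integrins, was at 35.1, 126, 816, 82.6 and 17.6 at passage 1 against a median of 0 and a highest value of 123, and at 0 and 545 at passage 2. Cxcl16, a membrane-bound chemokine, was at 91.2, 490, 236, 91.1 and 3.73 at passage 1, where 4 of 5 were above the highest other cell at 90.7, and at 0 and 107 at passage 2 (others 0 to 299).

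The soluble chemokines and Il6 were at or near 0 in most of these cells. For Ccl2 and Il6 at passage 2 this did not set them apart, because the median other cell was also low. Ccl7 was at 0 in all 7, while it reached 112 and 779 in other cells. Ccl2 was at 566 in passage 1 cell 11, 183 in passage 2 cell 8, and between 0 and 3.20 in the other five, against medians of 28.9 and 2.78 elsewhere. Cxcl1 was at 88.4 in passage 1 cell 11, 1.00 in passage 2 cell 8 and 0 in the other five, where other cells reached 164 and 1847. Il6 was at 0.706 or below at passage 1 and at 0 and 1.37 at passage 2, while 13 of 43 other cells of passage 2 reached 10. F3, tissue factor, the starter of coagulation, was at 353 in passage 1 cell 11 and at 5.33 or below in the other six, with other cells up to 1327 and 2559. Passage 1 cell 11 was thus the cell of this group that held Ccl2, Cxcl1 and F3 together.

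Genes of NF-kB signalling and plasminogen activation varied by cell. Nfkb2 was at 60.3, 3.10, 237, 0 and 18.7 at passage 1, a log2 ratio of 1.50 that was -0.09 without cell 13, and at 265 and 22 at passage 2, where other cells reached 99.9. Nfkbia, which encodes an inhibitor of NF-kB, was at 163, 20.9, 560, 22.6 and 96.6 and at 516 and 114, with medians of 71 and 149 in the other cells. Irf1, an interferon response factor, was at 296, 0, 86.2, 0 and 1.07 and at 213 and 528, with medians of 0.781 and 28.7. Both genes overlapped with other cells in both passages. The log2 ratios at passage 1 were -0.066 without cell 13 for Nfkbia and -0.35 without cell 11 for Irf1. Plat, tissue plasminogen activator, was at 4.91, 10.1, 748, 0 and 80.6 at passage 1, where cell 13 alone stood above the highest other cell (88.8), with a log2 ratio of 2.67 that was -0.10 without cell 13, and at 98.1 and 0 at passage 2. Plau, urokinase, was at 567 and 145 at passage 2, both above the highest other cell (116), and at 0, 1.55, 0, 0 and 36.8 at passage 1.

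Of 15 flow and antithrombotic genes, 14 were kept at passage 1, 9 higher and none lower (21.7% and 24.3% of all genes), with a median of 1.51. At passage 2, 12 were kept, 6 higher and 1 lower (24.6% and 43.5% of all genes), with a median of 1.12 that was -1.02 for cell 11 alone. Cav1, which forms caveolae and restrains nitric oxide synthase, was at 1445, 5814, 4342, 5959 and 2361 at passage 1 against a median of 624 (highest 4477), and at 5735 and 759 at passage 2 against a median of 190. Of 24 VEGF, angiopoietin and Notch genes, 7 were higher and 3 lower of 15 kept at passage 1 (21.7% and 24.3% of all genes), with a median of 0.44 that was 0.08 without cell 14. At passage 2, 6 were higher and 8 lower of 17 kept, shares of 35.3% and 47.1% beside 24.6% and 43.5% of all genes, with a median of -0.86 that was -2.92 for cell 8 alone. Of 13 basement membrane genes, 5 of 12 kept were higher and 1 lower at passage 1 (21.7% and 24.3% of all genes), with a median of 0.52. At passage 2, 3 of 12 were higher and 6 lower, shares near those of all genes (24.6% and 43.5%), with a median of -1.01. Sparc, a collagen-binding protein, was at 1637 to 3885 and at 2884 and 3315, within the range of the other cells in both passages. Col18a1, the source of endostatin, was at 9.82, 176, 74.8, 17.7 and 0 at passage 1 against at most 0.639, and at 813 and 0 at passage 2.

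**Figure D3:**
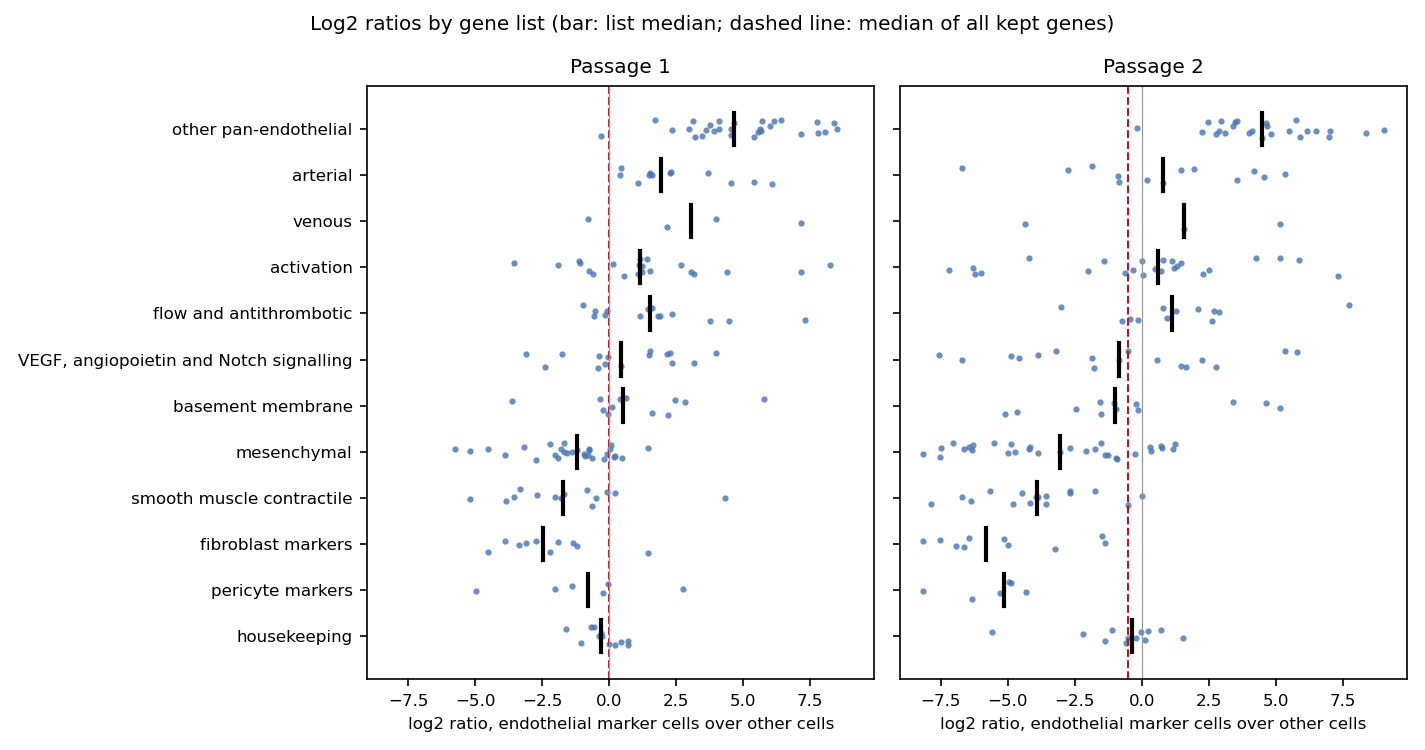
Log2 ratios (mean over endothelial marker cells over mean over other cells, each plus 1) of the kept members of 12 gene lists, 1 point per gene, for passage 1 (left) and passage 2 (right). Black bars mark list medians, from 4.67 and 4.48 for pan-endothelial genes to -2.48 and -5.80 for fibroblast markers, and the dashed line is the median of all kept genes (-0.02 and -0.52).

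Mesenchymal genes were lower as a group, though several of them stood at the level of the other cells. Of 33 mesenchymal genes, 29 were kept at passage 1, 1 at least 2-fold higher and 15 lower (21.7% and 24.3% of all genes), with a median log2 ratio of -1.21. At passage 2, 31 were kept, 2 higher and 22 lower (24.6% and 43.5% of all genes), with a median of -3.04, or -3.31 for cell 11 alone and -4.23 for cell 8 alone. The 2 higher members at passage 2 were Mmp2, a gelatinase, at 51 and 246, and Twist1, a transcription factor, at 0 and 22, both within the range of the other cells. The lower members made up 51.7% of those kept at passage 1 and 70.97% at passage 2. Of the 33 genes, 28 reached 10 in an endothelial marker cell at passage 1 and 20 at passage 2. Kept members under 10 in all of these cells were kept only through the other cells and could only come out lower. The counts therefore describe the list and do not test it.

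Vim, the intermediate filament vimentin, was at 2874, 2077, 9836, 2579 and 2727 at passage 1 and at 2657 and 3516 at passage 2, with medians of 3563 and 2023 in the other cells. Fn1, fibronectin, was at 936, 2820, 4042, 2624 and 804 and at 4435 and 6407, with medians of 1809 and 3820. Neither gene set the groups apart. Col5a2, a fibrillar collagen chain, was the member 2-fold higher at passage 1, at 207, 798, 464, 591 and 286 against a median of 103, and 3 of 5 cells stood above the highest other cell (445). Both passage 2 cells held it, at 287 and 1084, against a median of 362.

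Means of the collagen I and III genes were lower in both passages, though not in every cell. Passage 1 cell 11 held Col1a2 and Col3a1 above the median of the other cells. Col1a2 was at 1916, 205, 15.9, 532 and 601 at passage 1 against a median of 1388, and at 13 and 12.3 at passage 2, where the lowest other cell had 254. Col1a1 was at 213, 1.55, 14.4, 0.706 and 109 against a median of 272, and at 2.00 and 0 against a median of 500. Col3a1 was at 266, 139, 8.32, 0.706 and 25.6 against a median of 185, and at 0 and 11 against a median of 274. Both cells of passage 2 were thus at the low end of the range for the 3 chains, and cells 13 and 14 of passage 1 held the least Col3a1. Fbn1, the microfibril protein fibrillin 1, was at 778, 129, 593, 542 and 206 at passage 1, near the median of 411, but at 3.00 and 2.74 at passage 2, where the lowest other cell had 10.1.

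Mesenchymal receptors and transcription factors differed between the 5 cells of passage 1. Pdgfrb, the PDGF receptor of mural cells, was at 236, 10.8, 8.32, 7.77 and 126 and at 0 and 6.86, with medians of 185 and 269. Pdgfra, the PDGF receptor of fibroblasts, was at 85.6, 2.32, 0.756, 0 and 80.02 and at 0 in both cells of passage 2. Prrx1, a homeobox factor of mesenchyme, was at 462, 1.55, 0, 2.83 and 323 and at 0 and 13.7, while no other cell of passage 1 had less than 27.2. Snai1, a factor that represses epithelial and endothelial junction genes, was at 2.11, 0, 0, 0.706 and 18.7 and at 0 in both cells of passage 2, with medians of 28.6 and 0. Postn, periostin, was at 2.11 or below in all 7 cells, while other cells reached 630 and 1816.

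Cells 11 and 16 of passage 1 therefore held Prrx1, Pdgfra, Pdgfrb and Col1a1 beside the endothelial genes, while cells 12, 13 and 14 held each of these 4 genes at 14.4 or below. The same pair held Dclk1, a microtubule-associated kinase, at 538 and 523 and Serpinf1, the anti-angiogenic factor PEDF, at 174 and 164, against 2.27 or below in the other three. Cells 11 and 16 had 7 and 9 of 13 fibroblast markers at 10 (others at passage 1, 2 to 11) and cells 12, 13 and 14 had 3, 4 and 2. The secreted proteoglycan genes did not follow this split for cell 11: Dcn, decorin, was at 0.702 and Lum, lumican, at 0.702 there, against 84.3 and 53.3 in cell 16. Cell 12 held more Col3a1 than cell 16, and Col1a2 in cell 14 came near its value in cell 16. The mesenchymal list as a whole did not show the split. Of its 33 genes, 20, 19, 15, 15 and 26 reached 10 in cells 11, 12, 13, 14 and 16, with sums of 14518, 11976, 19029, 11754 and 9969. Cell 16 had the most reads of all 67 cells and 10396 genes with a read, and cell 11 had 1220237 reads and 8734 genes. Whether a library held RNA of more than 1 cell was not tested.

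Marker lists of other cell types were read in the same cells. The summed value of 13 fibroblast markers was 2409, 539, 1123, 629 and 1010 in passage 1 cells 11, 12, 13, 14 and 16, below the lowest other cell (1440) in all but cell 11. At passage 2 it was 88.1 and 327, below the lowest other cell (984). At passage 1, 9 of 10 kept fibroblast markers were lower and 1 higher (24.3% and 21.7% of all genes), with a median of -2.48. At passage 2 the 10 kept markers were all lower (43.5% of all genes), with a median of -5.80 that was -2.19 by medians over cells, -2.70 by means of log2 values and -2.97 with a pseudocount of 10. Of the 13 markers, 4 reached 10 in an endothelial marker cell of passage 2. Kept markers under 10 in both cells were kept only through the other cells and could only come out lower. The counts therefore describe the list and do not test it. Pericyte markers summed to 596, 44.9, 116, 73.5 and 776 at passage 1 (others 14.8 to 2446) and to 25 and 38.4 at passage 2, below all others (at least 174). Rgs5, a pericyte and smooth muscle regulator of G protein signalling, was at 24.0 and 30.2 at passage 2 against a median of 3359.

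Macrophage markers summed to at most 92.2 at passage 1 and 26 at passage 2, inside the range of the other cells (up to 150 and 295). Erythroid markers were at 0 in all 7 cells, lymphocyte markers other than Lck did not reach 10 in any, and mesothelial and epithelial markers summed to at most 24.8. Lck, a kinase gene of T cells, was at 145 and 24.7 at passage 2, above every other cell (at most 13.1), and at 39.3 in passage 1 cell 13. Schwann markers summed to at most 74.4, against up to 117 and 144 in other cells. Housekeeping genes had medians of -0.30 and -0.36.

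**Figure D4:**
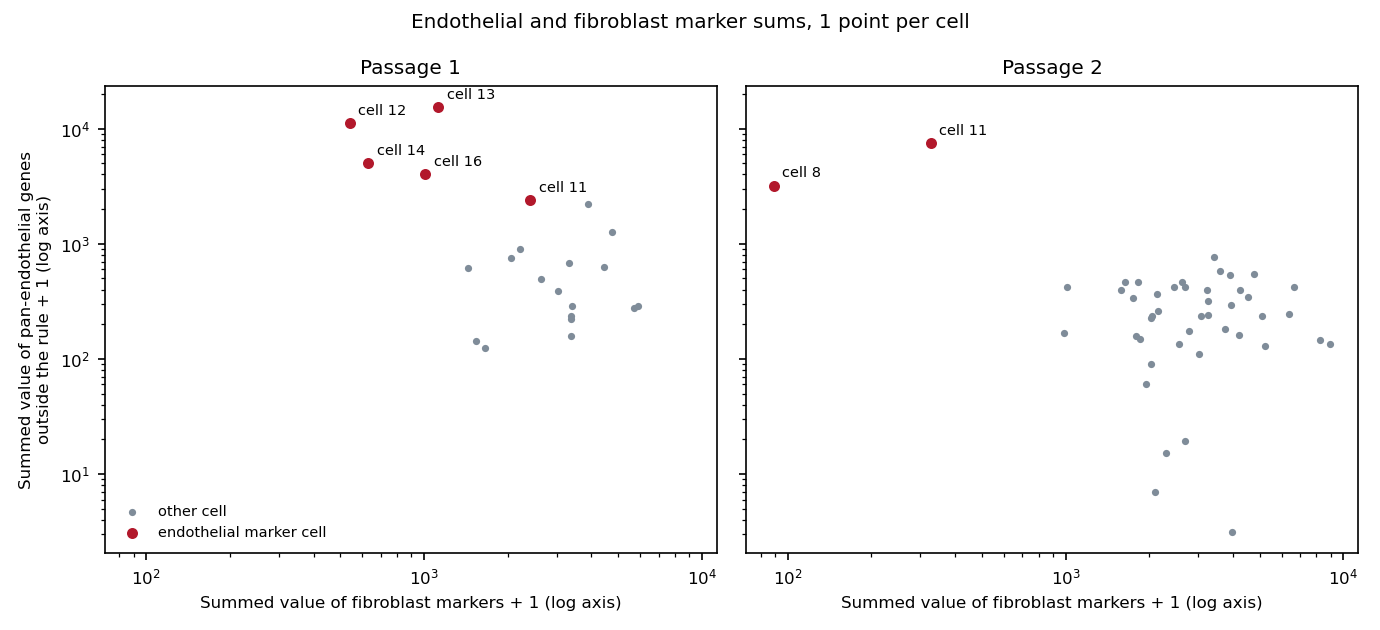
Summed deposited value of 35 pan-endothelial genes outside the rule (vertical, log axis) against that of 13 fibroblast markers (horizontal, log axis), each plus 1, with 1 point per cell (red, endothelial marker cells; grey, other cells). Passage 1 cell 11 lies nearest to the other cells, at 2389 and 2409, and passage 2 cells 8 and 11 lie left of all others, at 88.1 and 327 of fibroblast markers.

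Smooth muscle contractile genes, the label of the culture, were lower in part. Their summed value at passage 1 was 3487, 3345, 1101, 2813 and 966 in cells 11, 12, 13, 14 and 16. The other cells of passage 1 had 413 to 10254, with a median of 1582. At passage 2 the sum was 2695 in cell 8 and 2200 in cell 11, against 2402 to 33796 in the other cells (median 8704). At passage 1, 14 of 17 were kept, 1 higher and 8 lower (21.7% and 24.3% of all genes), with a median of -1.73. That median was -0.96 without cell 9, another cell, -0.021 by medians over cells and -0.37 by means of log2 values. Over cells without Mki67 or Top2a at 10, which left endothelial marker cells 11 and 14, it was -0.065. At passage 2, 16 were kept, none higher and 14 lower (24.6% and 43.5% of all genes), with a median of -3.92 that was -1.35 by medians over cells, -1.87 by means of log2 values and -1.91 with a pseudocount of 10. Of the 17, 11 reached 10 in an endothelial marker cell at passage 1 and 8 at passage 2. Kept genes under 10 in all of these cells were kept only through the other cells and could only come out lower. The counts therefore describe the list and do not test it. Acta2, smooth muscle actin, was at 1113, 851, 408, 383 and 134 at passage 1 against a median of 307, so the endothelial marker cells lay within the spread of the others (5.67 to 4826). The passage 2 cells had 469 and 810 against a median of 2894. Tagln, the actin-binding protein transgelin, was at 49.1, 432, 133, 2.83 and 35.7 against a median of 109, and at 233 and 20.6 against a median of 1393. Cald1, caldesmon, was at 589 and 1042 at passage 2 against a lowest value of 823 and a median of 2487. Myocd, the smooth muscle co-activator myocardin, was at 202 in passage 1 cell 14, above every other cell of that passage (at most 16.2), and at 0 in the other six. It was the member counted as higher at passage 1.

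TGF-beta and BMP genes differed by ligand. Of 25, 7 were higher and 7 lower of 21 kept at passage 1 (21.7% and 24.3% of all genes), with a median of -0.50. At passage 2, 7 of 21 were higher and 10 lower, shares of 33.3% and 47.6% beside 24.6% and 43.5% of all genes, with a median of -0.58 that was 0.015 for cell 11 alone and -3.47 for cell 8 alone. Bmp6, a ligand that endothelium is known to make for the control of iron, was at 148, 370, 106, 31.1 and 109 at passage 1 and at 0 in all 17 other cells, a mean at least 1210-fold higher with the same floor. At passage 2 it was at 1.00 and 377, and other cells reached 615. Bmp4 was at 60.3, 411, 294, 913 and 248 against a median of 37.8 and at 219 and 856 against a median of 146. Tgfb3 was at 0 in both cells of passage 2, where other cells reached 2266. Tgfbr1, the type I TGF-beta receptor, was at 210 and 408 at passage 2, above every other cell (at most 171), and at 44.2, 5.42, 1.51, 3.53 and 59.7 at passage 1 against a mean of 69.5 and a median of 5.33. Ltbp1, which anchors latent TGF-beta in matrix, was at 2.00 and 11 at passage 2 against a median of 379.

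Sums of cell cycle genes overlapped between the groups at passage 1. Of 35 S, G2 and M phase genes, all were kept, 4 higher and 7 lower (21.7% and 24.3% of all genes), with a median of -0.23 and sums of 1592, 10134, 5967, 537 and 4976 against 371 to 12024 in the other cells. Without cell 12 that median was -1.18. At passage 2 their sum was 5560 in cell 8, above every other cell (at most 5520), and 228 in cell 11, and the median of 2.19 over 28 kept genes was 3.10 for cell 8 alone and -3.73 for cell 11 alone. Immediate early genes had medians of 0.05 and -1.23.

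The genes with the lowest ratios at passage 1 were led by Fmo2, a flavin monooxygenase, at 0.775 in cell 12 and 0 in the other four against a median of 27.4 and a highest value of 1746. Clip3, a microtubule-binding protein, was at 1.07 or below in all 5 cells, and the lowest other cell had 2.93. Slc4a4, a sodium bicarbonate cotransporter, was at 1.60 or below against a median of 35.7, and Cobll1 at 1.41 or below against a median of 23.8. Igfbp5, an IGF-binding protein of smooth muscle and fibroblasts, was at 17.1 in cell 16 and 0 in the other four, with other cells up to 2305. Of the remaining genes among the 12 lowest, Eid1, Mis12, Wipf1, Pak3, 2610002M06Rik and 1700025G04Rik were at 3.2 or below in all 5 cells, and Usp8, a deubiquitinase, reached 9.6 in cell 16. Other cells held them at medians from 10 (2610002M06Rik) to 98.9 (Usp8). Cells 11 and 16 were low for Fmo2, Clip3, Slc4a4 and Cobll1 as well, unlike for Prrx1 and Pdgfrb.

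The 12 lowest ratios at passage 2 included genes of matrix, signalling and transport. Ccn5, a matricellular protein, was at 2.00 and 0 where the lowest other cell had 18.2 and the median was 1220. Adamtsl3 was at 3.00 and 2.74 against a lowest value of 27.2 and a median of 1182, and Lox, the collagen cross-linking enzyme lysyl oxidase, at 0 and 8.23 against 32.7 and 1080. Serpinf1, Gpc6, a glypican, Dclk1 and Mef2c, a transcription factor of muscle and vessels, were at 0 in both cells, against medians of 562, 364, 191 and 94.2. Zc2hc1a was at 4 and 0 against a median of 664, and Slc6a6, the taurine transporter, at 1 and 0 against a median of 277. The passage 1 endothelial marker cells did not all lack these genes: Adamtsl3 was at 595, 2249, 3.78, 0.706 and 718.

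Whole profiles were compared last. Over 8101 genes without the 10 of the rule, the nearest cell by Spearman correlation was another endothelial marker cell for 6 of the 7, with rho from 0.449 to 0.524. For passage 1 cells 11, 12, 13 and 14 and passage 2 cell 8 that nearest cell was passage 1 cell 16, the deepest library, and for passage 2 cell 11 it was passage 1 cell 14. The nearest cell of passage 1 cell 16 was cell 22, which is no endothelial marker cell, with rho 0.583. All 3 nearest cells were endothelial marker cells for passage 1 cell 13 and for both cells of passage 2, whose neighbours included cells of the other passage. Cells 11 and 12 of passage 1 had 1 endothelial marker cell among their nearest 3 cells, and cell 16 had none. Median rho to the other endothelial marker cells of passage 1 was 0.447, 0.445, 0.436, 0.452 and 0.495 for cells 11, 12, 13, 14 and 16, and to the other 17 cells it was 0.457, 0.424, 0.394, 0.422 and 0.511. Cells 11 and 16 were thus nearer to the other cells by this median. The median rho of passage 2 cell 8 was 0.448 to the 5 endothelial marker cells of passage 1 and 0.341 to the other 43 cells of its own passage, and that of passage 2 cell 11 was 0.410 and 0.376. These correlations run over genes, which are not independent, and depend on depth, which the cells do not share.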

How the data were processed

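The deposited table held 1 column for each of 67 cells and 39179 gene rows, of which 37607 had a symbol in the GRCm38 names table. Its values are a normalised signal: per the submitters' processing notes, which name BWA, SAMtools, HTSeq, DESeq and GRCm38 without versions, the authors counted reads per gene and scaled them, and each column came out as whole reads divided by 1 number (largest distance 1.87e-05 of a read, tolerance 0.001). Libraries held 548419 to 1561129 reads. Handling of strand and of reads matching several genes is not given in the sources used here, and values are not scaled by gene length, so levels were compared between cells and not between genes.

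Means, medians, ratios (pseudocount 1, minimum mean 10), counts past 2-fold and Spearman correlations were computed with Python 3.11.15, numpy 2.4.6, pandas 2.3.3 and scipy 1.17.1, and drawn with matplotlib 3.10.9. The scripts were tested on simulated data. A fold against cells all at 0 used 3 reads over the group as floor.

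Genes named are, in each passage, the 12 highest and the 12 lowest ratios among genes detected widely enough. An arterial, venous, activation or mesenchymal gene could be named where it reached 10 in an endothelial marker cell, and the text gives a selection of these, and from other lists members with the highest means and extreme ratios. Values of a named gene at the other passage are given beside it. The members, lists and rule were chosen with earlier results of these data known. Alternatives changed the pseudocount, the filter, the summary over cells, the scaling, the depth, the cycling cells, the marker rule and single cells.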

Additional observations from a re-analysis of the deposited data

Results flagged for a closer look

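Among 95 genes checked for a cell far from the other four endothelial marker cells of passage 1, 13 had one. The distance is Dixon's ratio, the gap to the nearest cell over the range, against a limit that about 1 in 20 groups of normally distributed replicates would pass by chance. Single cells with many values at 0 are no such replicates, so that rate does not hold here and these cells are listed as a description. Cell 11 stood apart by a low Myct1 (18.9) and by high Ccl2 (566) and Cxcl1 (88.4). Cell 12 stood apart by Unc5b (246), and cell 13 by Vim (9836), Depp1 (445) and Abcg1 (159). Cell 16 held Dcn (84.3), Igfbp5 (17.1) and Plau (36.8), each at or near 0 in the other four. Cell 14 held Myocd (202) and Twist1 (25.4), and it was low for Slc6a6 (0.706).

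Of 113 genes compared between passages, 3 had all endothelial marker cells on opposite sides of the mean of the other cells of their passage. Nrp1 had a log2 ratio of 1.49 at passage 1 and -0.86 at passage 2, Jag1 2.15 and -3.22, and Tgfbr1 -1.56 and 4.07. For Nrp1, passage 2 cell 11 was nearly at the mean of the other cells, with a ratio of -0.019 when taken alone. Its value of 390 lay above their median, and their mean held the high values of cells 2 and 36 (3488 and 3181). None of these differences was tested, and passage cannot be told apart from library set.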

How the results depend on the processing

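No test was possible with 1 sample a passage, and the 2 endothelial marker cells of passage 2 limit every value there. No paired analysis was possible because no comparison between groups comes from a test and cell numbers pair no cells. The cause of the shifts below was not tested. Leaving out cycling cells, those with Mki67 or Top2a at 10, kept endothelial marker cells 11 and 14 at passage 1. The other cells kept there were cells 3, 5, 7 and 17. At passage 2 cell 11 was the only endothelial marker cell kept, so values without cycling cells there describe that cell.

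With a minimum mean of 50, 907 genes were higher and 650 lower at passage 1 and 1265 lower at passage 2, and with no filter 3868 and 6586 were lower. At passage 2, medians over cells gave 4526 higher and 1105 lower genes and means of log2 values 3314 and 2275, with all-gene medians of 1.13 and 0.35. Medians at passage 2 changed only the summary of the other cells, because the median of 2 endothelial marker cells is their mean.

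The venous median at passage 1 was 4.54 with pseudocount 0.1, 1.29 with 10, -0.15 with no filter, 1.62 by medians and -0.056 without cycling cells. At passage 2 it was -0.64 with no filter, 4.94 by medians, 3.16 by mean log2 and -1.06 without cycling cells. The arterial median at passage 2 was -0.32 with minimum mean 50, 2.52 by medians and 2.31 by mean log2. The activation median at passage 2 was 0.51 with no filter, 0.75 with minimum mean 50, 3.07 by medians, 1.11 by mean log2, 0.46 with TMM scaling and 0.39 without cycling cells. The mesenchymal median at passage 2 was -1.95 with pseudocount 10, -2.69 with no filter, -2.39 with minimum mean 50, -1.07 by medians, -1.67 by mean log2 and -3.38 without cycling cells. Without cycling cells, and so with cell 11 as the only endothelial marker cell, the passage 2 medians of capillary, flow and cycle genes were -0.90, -0.93 and -3.50. The basement membrane median there was 0.062 by medians and 0.030 by mean log2. The pan-endothelial median was 6.48 with pseudocount 0.1 at passage 1. At passage 2 it was 6.36 with pseudocount 0.1, 2.67 with 10, 3.49 with no filter, 5.62 with minimum mean 50 and 6.67 by medians.

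Without cycling cells, Ephb4 was -0.056, F3 1.54 and Plat -3.68 at passage 1, where endothelial marker cells 11 and 14 were left. With cell 11 alone left at passage 2, Cd34 was -4.72, Col18a1 -3.92 and Plat -4.49. By medians, Tgfbr1 was 0.020 and Plat -0.38 at passage 1, and Ccl2 4.64, Dcn 3.36 and Il6 0.75 at passage 2. Ccl2 was 0.35 by mean log2.

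With 1 cell left out, medians at passage 1 ran from 1.36 to 2.88 (arterial) and 2.44 to 4.27 (venous). At passage 2 they ran from -1.54 to 1.25 (arterial), -1.19 to 1.90 (venous), -1.05 to 1.64 (capillary), -0.34 to 0.71 (activation), -1.02 to 1.39 (flow), -4.23 to -2.83 (mesenchymal) and -3.73 to 3.10 (cycle). At passage 1, Nfkb2 ran from -0.088 to 2.23, Plat from -0.10 to 2.99, Irf1 from -0.35 to 2.82 and Nfkbia from -0.066 to 1.40. At passage 2, Notch1 ran from -1.26 to 2.36, Icam1 from -5.82 to 3.27, Bmp6 from -3.73 to 3.94, Cd34 from -4.40 to 3.47, Plat from -4.18 to 2.73, Mmp2 from -0.30 to 2.12 and Col18a1 from -4.02 to 5.65. Leaving out 1 endothelial marker cell was added after the data were seen for the genes above every other cell.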
